A study of Mus musculus with 9 samples.

Results

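Caveolins and cavins are the proteins that shape and coat caveolae, the small flask-like pits of the plasma membrane, and the genes that encode them were followed here in C2C12 myotubes. The set was made of the caveolin genes Cav1, Cav2 and Cav3, the cavin genes Cavin1, Cavin2, Cavin3 and Cavin4, and Ehd2, found by their symbols. All 8 were among the 10716 genes of the deposited table. Cav2 had been chosen by its measured values in these same libraries, and the contrast that chose it is not recorded. Its values are therefore given as a description, with no test, in each of the comparisons. The other 7 genes were added by family name and were tested.

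The myotubes came in 3 groups of 3 libraries, all harvested after 24 h. One group received both 50 µM dexamethasone and 10 µM THSG, one received 50 µM dexamethasone alone, and one received vehicle. C2C12 is a mouse myoblast line whose cells fuse into multinucleated myotubes, dexamethasone is a synthetic glucocorticoid that causes loss of muscle protein in culture, and THSG, an abbreviation that the labels leave unexplained, usually means a plant stilbene glucoside. The series addresses THSG in a dexamethasone model of muscle atrophy. No group received THSG alone, so its values are always those on top of dexamethasone. The labels do not say whether replicates were separate cultures, so p-values measure the spread between these libraries only, which may be technical. Each title names C2C12, whereas the number in the cell line field goes up by 1 with every sample, and the titles were followed.

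In a caveola, caveolins insert into the inner leaflet as disc-like oligomers, cavins assemble a coat on top of them, and the ATPase EHD2 sits in a ring at the neck. Caveolin-1 and caveolin-2 form mixed oligomers in most cell types, and caveolin-2 depends on caveolin-1 to leave the Golgi. Caveolin-3 and cavin-4 are the forms of striated muscle, where caveolae protect the membrane against stretch and take part in forming the transverse tubules. Loss of caveolin-3 or of cavin-1 causes muscle disease in humans.

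The promoters of the 3 caveolin genes are printed first because the results turn on Cav1, which was lower under dexamethasone, and Cav3, which did not pass the test. Cav2 was lower too, but it was chosen by its values and carries no test. Sequences are from RefSeq on mouse build GRCm38.p6, from 250 bases before the annotated transcription start to 50 bases after it, 5′ to 3′ on the gene's strand. Of the 8 genes, 7 had a promoter entry. Capitals mark every match, on either strand, to 5 short motifs: AGAACA (a half-site of the glucocorticoid receptor), GTAAACA (a forkhead core), CAGCTG (an E-box bound by myogenic factors), CATTCC (the core bound by TEAD factors) and GGGCGG (the GC box of Sp1). The Cav2 promoter is chr6:17280935-17281234, that of the first Cav1 start is chr6:17306085-17306384 and that of Cav3 is chr6:112459255-112459554, all on the plus strand.
Cav2: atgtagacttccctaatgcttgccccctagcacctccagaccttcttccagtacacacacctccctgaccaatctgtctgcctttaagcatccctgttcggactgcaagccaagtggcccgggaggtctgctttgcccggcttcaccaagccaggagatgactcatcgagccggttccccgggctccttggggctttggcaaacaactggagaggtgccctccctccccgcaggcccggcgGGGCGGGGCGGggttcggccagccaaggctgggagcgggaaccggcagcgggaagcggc
Cav1: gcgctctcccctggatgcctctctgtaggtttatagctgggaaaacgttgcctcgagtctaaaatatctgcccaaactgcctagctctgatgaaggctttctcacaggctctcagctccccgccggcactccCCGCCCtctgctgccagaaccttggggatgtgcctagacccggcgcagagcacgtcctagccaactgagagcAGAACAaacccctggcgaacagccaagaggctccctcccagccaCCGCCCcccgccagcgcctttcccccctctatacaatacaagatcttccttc
Cav3: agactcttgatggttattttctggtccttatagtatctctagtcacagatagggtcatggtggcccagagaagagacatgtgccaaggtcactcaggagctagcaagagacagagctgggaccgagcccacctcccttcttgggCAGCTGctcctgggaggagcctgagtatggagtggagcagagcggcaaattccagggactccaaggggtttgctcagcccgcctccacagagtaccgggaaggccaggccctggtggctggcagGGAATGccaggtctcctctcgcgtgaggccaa

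The Cav1 window held 1 AGAACA, starting 46 bases before the transcription start, and GC boxes on the opposite strand at 118 and 2 bases before it. The Cav2 window held GC boxes at 9 and 4 bases before the start, which overlap by 1 base, and no AGAACA. The Cav3 window held an E-box at 106 bases before the start and the TEAD core, on the opposite strand, 18 bases after it. The second annotated start of Cav1, at chr6:17307390-17307689, held none of the motifs. Short motifs of this kind are common: of 32851 mouse promoters of the same length, 19.0% held AGAACA, 3.65% GTAAACA, 16.3% CAGCTG, 14.7% CATTCC and 35.7% GGGCGG. An exact pair of half-sites, AGAACA followed by its reverse complement after a spacer of 3 bases, was in 3 of the 32851 promoters and in none of these. Receptor sites that differ from these letters were not searched for. A match is a string of letters and was not shown to be bound here.

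Levels are in FPKM, a fragment count scaled to transcript length and library size, which allows levels of different genes to be set side by side. The unit was inferred from the values, as no header or label gives it, and the depth of the libraries is unknown. No value of the table was below 1 FPKM, which means that low genes were left out before deposition and that all 8 genes had passed this floor. The libraries summed to between 400218 and 422379 FPKM. Mitochondrial genes took 10.5% to 12% of the sum in 8 libraries and 14.0% in dexamethasone replicate 3. Differences are log2 fold changes of FPKM + 0.1, tested with limma and called at an adjusted p under 0.05, where the adjustment (Benjamini-Hochberg) is over all 10716 genes.

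Cav1 (ENSMUSG00000007655), the main caveolin of most cell types, fell by 1.16 on the log2 scale with dexamethasone, and Cav2 (ENSMUSG00000000058), its partner in mixed oligomers, was lower as well. Cav3 (ENSMUSG00000062694), the muscle caveolin, did not pass the test. In FPKM the largest difference among the caveolins was in Cav1, and Cav3 made up a larger share of caveolin transcripts with dexamethasone than with vehicle.

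For Cav1 the libraries had 12.9, 12.2 and 11.0 FPKM with dexamethasone plus THSG, 12.3, 12.5 and 13.7 FPKM with dexamethasone, and 29.4, 28.3 and 28.9 FPKM with vehicle. All 6 dexamethasone-treated libraries were below every vehicle library, and the treated groups overlapped each other. Cav1 averaged 12.9 ± 0.771 FPKM with dexamethasone and 28.8 ± 0.546 FPKM with vehicle (SD, n = 3 each), which is 2.24 times lower with dexamethasone. The log2 fold change was -1.16 (SE 0.0701, 95% interval -1.31 to -1.01, limma adjusted p = 1.97e-07), and it ranked 126 from the lowest among the 10716 genes.

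For Cav2 the libraries had 2.02, 1.83 and 1.63 FPKM with dexamethasone plus THSG, 2.48, 2.29 and 2.61 FPKM with dexamethasone, and 4.41, 4.71 and 4.28 FPKM with vehicle. The 3 groups stood fully apart, in the order dexamethasone plus THSG, dexamethasone, vehicle from low to high. Cav2 averaged 2.46 ± 0.162 FPKM with dexamethasone and 4.47 ± 0.220 FPKM with vehicle (SD, n = 3 each), so that its log2 fold change was -0.84 (SE 0.119), given without a test. It was the lowest of the 8 genes, at the 9.71 percentile of mean level among all genes of the table and close to the floor of 1 FPKM, so the pseudocount matters: with 1 in place of 0.1 the log2 fold change was -0.66.

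For Cav3 the libraries had 51.7, 53.1 and 48.4 FPKM with dexamethasone plus THSG, 55.8, 52.6 and 43.9 FPKM with dexamethasone, and 48.3, 39.3 and 42.7 FPKM with vehicle. The dexamethasone and vehicle groups overlapped, because vehicle replicate 1 was higher than dexamethasone replicate 3. The log2 fold change for dexamethasone against vehicle was 0.22 (SE 0.0916, 95% interval 0.02 to 0.42), which missed the threshold with a limma adjusted p of 0.0846. Whether Cav3 was called depended on the processing: it was called higher in 6 of 19 alternatives of scaling, filter, model and left-out library, among them median-ratio scaling (adjusted p = 0.0364), the fit without vehicle replicate 1 (0.30, adjusted p = 0.0321) and the fit without dexamethasone replicate 3 (0.32, adjusted p = 0.0127). Dexamethasone replicate 3 had the lowest Cav3, the lowest Cavin1 and the highest Cav1 of its group and was the library with the high mitochondrial share; the part of that share in these values was not tested.

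**Figure D1:**
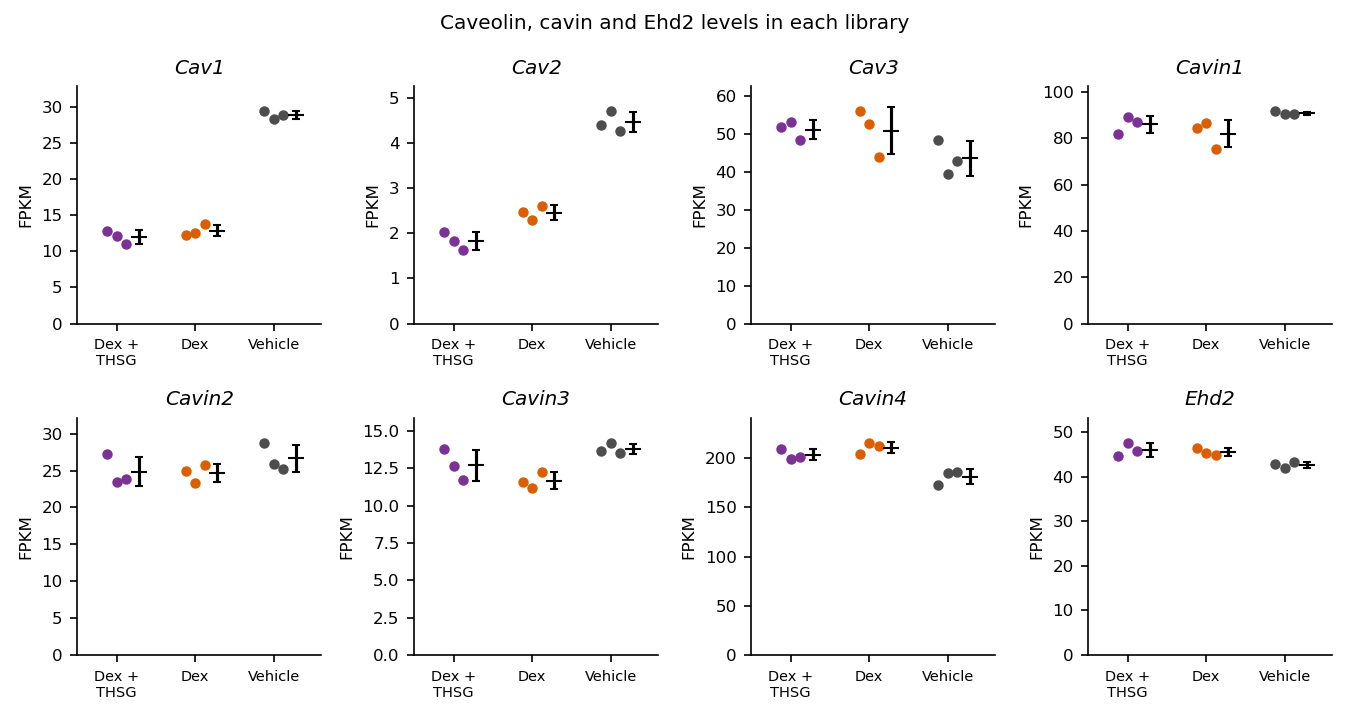
FPKM of the 3 caveolins, 4 cavins and Ehd2 in each library (points) with the group mean and SD beside them (n = 3), for dexamethasone plus THSG, dexamethasone and vehicle; each panel has its own axis from 0. Cav1 was at 11.0 to 13.7 FPKM in the 6 dexamethasone-treated libraries and at 28.3 to 29.4 FPKM with vehicle, while Cav3, the cavins and Ehd2 differed far less.

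Among the caveolins, Cav3 was the most abundant in every library. It made up 78.7 ± 0.916% of summed caveolin FPKM with dexamethasone plus THSG, 76.6 ± 3.32% with dexamethasone and 56.5 ± 2.25% with vehicle (SD, n = 3 each). The share of Cav1 was 18.5 ± 0.719% with dexamethasone plus THSG, 19.6 ± 2.83% with dexamethasone and 37.6 ± 1.71% with vehicle. Cav2 made up 2.81 ± 0.197% with dexamethasone plus THSG, 3.75 ± 0.509% with dexamethasone and 5.84 ± 0.595% with vehicle. Shares of one sum are tied to each other, so a lower Cav1 raises the share of Cav3 by itself. The summed caveolin level was 64.9 ± 3.38 FPKM with dexamethasone plus THSG, 66.1 ± 5.32 FPKM with dexamethasone and 76.8 ± 4.96 FPKM with vehicle. Every dexamethasone-treated library was below the lowest vehicle library, the nearest being dexamethasone replicate 1 at 70.6 FPKM and vehicle replicate 2 at 72.3 FPKM. Groups did not overlap for 45.9% of all genes with dexamethasone and 43.1% with dexamethasone plus THSG against vehicle. Such a sum depends on scaling between libraries, and its separation under other scalings was not tested.

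The ratio of Cav3 to Cav1 within a library does not depend on scaling between libraries. It was 4.02, 4.36 and 4.41 with dexamethasone plus THSG, 4.53, 4.20 and 3.19 with dexamethasone, and 1.65, 1.39 and 1.48 with vehicle. The treated libraries all lay above the vehicle libraries. The ratio was 2.61-fold higher with dexamethasone than with vehicle, at p = 0.1 in an exact two-sided permutation test, the smallest p that 3 against 3 libraries allow. Between dexamethasone plus THSG and dexamethasone the ratio differed 1.08-fold, less than the spread between libraries (exact permutation p = 0.7). The ratio of Cav1 to Cav2 was 6.58 ± 0.198 with dexamethasone plus THSG, 5.23 ± 0.259 with dexamethasone and 6.47 ± 0.405 with vehicle (SD, n = 3 each). It was not tested. Cav2 was chosen by its values and lies near the floor of the table, so nothing is read from this ratio.

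**Figure D2:**
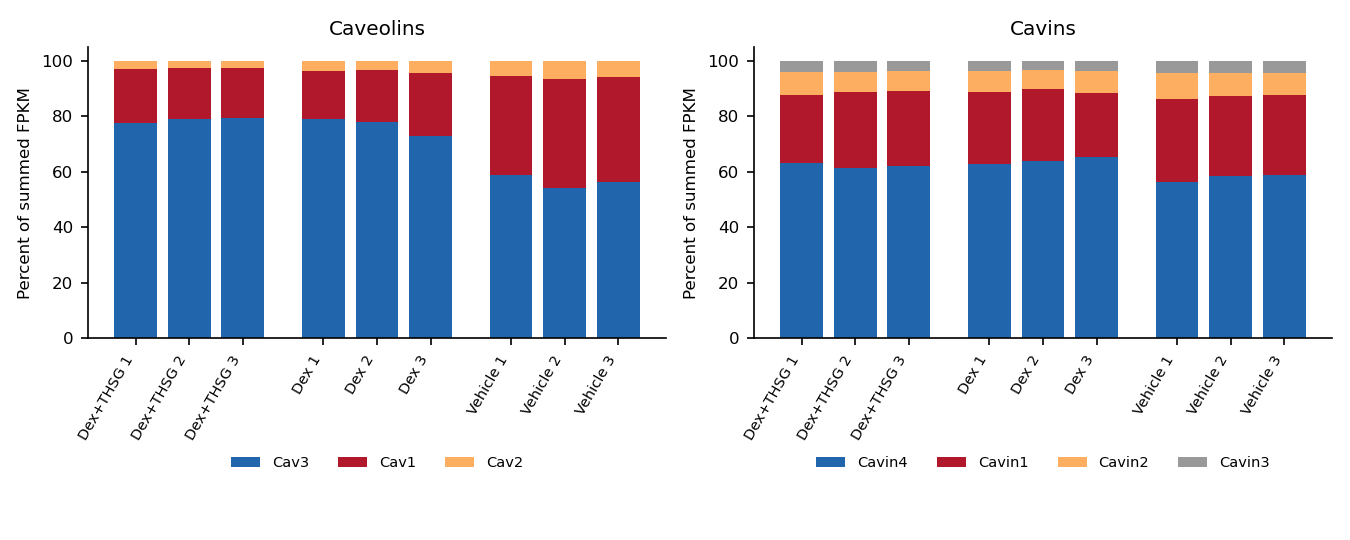
Percent of summed caveolin FPKM (left) and of summed cavin FPKM (right) taken by each gene in each library, ordered dexamethasone plus THSG, dexamethasone, vehicle. Cav3 filled 72.8% to 79.3% of the caveolin sum in the 6 treated libraries and 54.4% to 58.9% with vehicle, while Cavin4 filled 61.4% to 65.2% of the cavin sum in treated libraries and 56.4% to 59.0% with vehicle.

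The cavins and Ehd2 moved by much less than Cav1. Of the 4 cavins, Cavin4 rose and Cavin3 fell with dexamethasone, and Cavin1, Cavin2 and Ehd2 did not pass the test. In total 3 of the 7 tested genes were called for dexamethasone against vehicle, 1 higher and 2 lower. Among all genes, 12.7% were called higher and 20.9% lower, and 6 of the 7 genes had an unadjusted p under 0.05, as did 4664 of the 10716. The groups did not overlap for 5 of the 7 tested genes, against 45.9% of all genes.

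Cavin4 (ENSMUSG00000028348) encodes the muscle cavin, which binds caveolin-3 and is found at transverse tubules. Its libraries had 210, 199 and 201 FPKM with dexamethasone plus THSG, 205, 215 and 212 FPKM with dexamethasone, and 173, 185 and 186 FPKM with vehicle. All treated libraries were above all vehicle libraries. The log2 fold change for dexamethasone against vehicle was 0.22 (SE 0.0441, limma adjusted p = 0.00259), and it was called in each of 19 alternatives.

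Cavin3 (ENSMUSG00000037060) encodes a cavin that binds caveolin-1 and links caveolae to signalling proteins. Its libraries had 13.8, 12.7 and 11.7 FPKM with dexamethasone plus THSG, 11.5, 11.2 and 12.3 FPKM with dexamethasone, and 13.7, 14.2 and 13.5 FPKM with vehicle. Only the dexamethasone group was apart from vehicle, and the group with THSG overlapped both. The log2 fold change for dexamethasone against vehicle was -0.24 (SE 0.0724, limma adjusted p = 0.0240). The call was lost in 7 of 19 alternatives: with median-ratio scaling (adjusted p = 0.0612), quantile normalization (adjusted p = 0.0650) and a correction for GC content and transcript length (adjusted p = 0.10), and without vehicle replicate 1 (0.0520), vehicle replicate 2 (0.0755), dexamethasone replicate 1 (0.0621) or dexamethasone replicate 2 (0.0793).

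Cavin1 (ENSMUSG00000004044) encodes the cavin without which caveolae do not form. Its libraries had 81.9, 89.1 and 87.0 FPKM with dexamethasone plus THSG, 84.4, 86.4 and 75.3 FPKM with dexamethasone, and 91.7, 90.4 and 90.4 FPKM with vehicle. The treated libraries were all below the vehicle libraries. The log2 fold change for dexamethasone against vehicle was -0.15 (SE 0.0551, 95% interval -0.27 to -0.03), with a limma adjusted p of 0.0564. Without dexamethasone replicate 2 it was -0.19 and was called (adjusted p = 0.0358), while it was -0.09 without dexamethasone replicate 3 (adjusted p = 0.198) and -0.05 with the GC and length correction (adjusted p = 0.361).

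Cavin2 (ENSMUSG00000045954), whose product helps to set the curvature of the coat, had 27.2, 23.5 and 23.9 FPKM with dexamethasone plus THSG, 24.9, 23.4 and 25.8 FPKM with dexamethasone, and 28.7, 25.9 and 25.2 FPKM with vehicle. The 3 groups overlapped, and the log2 fold change for dexamethasone against vehicle was -0.11 (95% interval -0.27 to 0.05, limma adjusted p = 0.273). It was -0.05 without vehicle replicate 1 and -0.20 with the GC and length correction, with no call in either. Ehd2 (ENSMUSG00000074364), the ATPase of the caveola neck, had 44.7, 47.6 and 45.8 FPKM with dexamethasone plus THSG, 46.4, 45.4 and 44.8 FPKM with dexamethasone, and 42.7, 41.9 and 43.2 FPKM with vehicle. Its treated libraries were all above vehicle, by 0.10 on the log2 scale (SE 0.0429), which missed the threshold (limma adjusted p = 0.108). Ehd2 was called higher under median-ratio scaling (adjusted p = 0.0288), quantile normalization (adjusted p = 0.0425) and the GC and length correction (adjusted p = 0.0189).

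Summed over the 4 genes, cavin level was 327 ± 5.0 FPKM with dexamethasone plus THSG, 329 ± 6.32 FPKM with dexamethasone and 313 ± 4.72 FPKM with vehicle (SD, n = 3 each). Of that sum, Cavin4 made up 62.2 ± 0.828% with dexamethasone plus THSG, 64.0 ± 1.17% with dexamethasone and 58.0 ± 1.44% with vehicle. Relative to Cav1, Cavin1 was 2.02-fold higher with dexamethasone than with vehicle (exact two-sided permutation p = 0.1, the smallest possible).

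Adding THSG to dexamethasone gave no call among the 7 tested genes. Cav2 was the member with the largest difference, at 1.33 times lower with THSG. Cav2 averaged 1.83 ± 0.195 FPKM with dexamethasone plus THSG and 2.46 ± 0.162 FPKM with dexamethasone (SD, n = 3 each), so that its log2 fold change was -0.41 (SE 0.119), ranked 50 from the lowest of all genes. Its groups did not overlap, which held for 13.3% of all genes and for none of the 7 tested genes, and since Cav2 may have been chosen by this contrast nothing is read from it. With a pseudocount of 1 the log2 fold change of Cav2 was -0.29.

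Cav1 averaged 12 ± 0.950 FPKM with dexamethasone plus THSG and 12.9 ± 0.771 FPKM with dexamethasone (SD, n = 3 each). The log2 fold change was -0.10 with a 95% interval of -0.25 to 0.05 (limma adjusted p = 0.778), so the interval holds no change as well as a decrease of that size. Cav3 had a log2 fold change of 0.01 (95% interval -0.19 to 0.22), Cavin4 of -0.05 (-0.15 to 0.04) and Cavin3 of 0.12 (-0.04 to 0.28). Cavin1, Cavin2 and Ehd2 had log2 fold changes of 0.07, 0.01 and 0.01, and 0 of the 7 genes had an unadjusted p under 0.05. Over the whole table limma called 0% of genes higher and 0% lower, with 777 genes at an unadjusted p under 0.05 and a smallest adjusted p of 0.227. With the replicate number as a block 1 gene was called, the ribosomal protein pseudogene Rps2-ps10, whose reads cannot be told apart with certainty from those of its parent gene. Without dexamethasone replicate 3, 1 gene was called, the cell cycle gene Cks2.

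**Figure D3:**
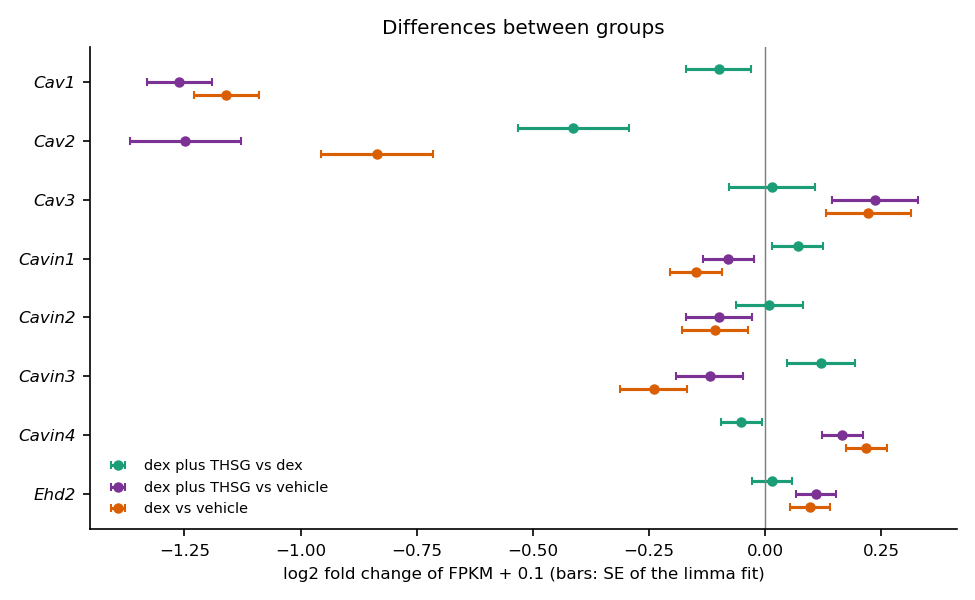
Log2 fold changes of FPKM + 0.1 (points) with the SE of the limma fit (bars) for the 8 genes, in dexamethasone plus THSG against dexamethasone, dexamethasone plus THSG against vehicle, and dexamethasone against vehicle. Cav1 stood at -1.26 and -1.16 against vehicle. The comparison of THSG plus dexamethasone with dexamethasone lay near 0 for the 7 tested genes. Cav2, which was chosen by its values and carries no test, was at -0.41.

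Against vehicle, dexamethasone plus THSG gave 2 calls among the 7 tested genes, Cav1 lower and Cavin4 higher. This comparison and that of dexamethasone alone use the same vehicle libraries, so they are not independent. Cav1 was 2.40 times lower, or -1.26 on the log2 scale (SE 0.0701, limma adjusted p = 9.63e-08), beside -1.16 for dexamethasone alone. Cav2 had a log2 fold change of -1.25 (SE 0.119, no test), beside -0.84 for dexamethasone alone. Cavin4 was higher by 0.17 on the log2 scale (limma adjusted p = 0.0145), and its call was lost without vehicle replicate 1 (adjusted p = 0.0510) or without dexamethasone plus THSG replicate 1 (adjusted p = 0.0568).

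Cav3, at 0.24, missed the threshold with a limma adjusted p of 0.0761, and Ehd2, at 0.11, with one of 0.0787. Cav3 was called in 6 of 19 alternatives and Ehd2 in 2, so that the number of called genes was 4 with median-ratio scaling and 4 with the GC and length correction, and 1 without dexamethasone plus THSG replicate 1. Cavin3 differed by -0.12 (adjusted p = 0.250), Cavin2 by -0.10 (adjusted p = 0.339) and Cavin1 by -0.08 (adjusted p = 0.320) on the log2 scale. Of all genes, 12.1% were called higher and 17.0% lower. The groups did not overlap for 5 of the 7 tested genes, against 43.1% of all genes.

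Ranked by mean FPKM, the order was Cavin4, Cavin1, Cav3 and Ehd2 in all 3 groups, with Cav2 last in each. Cavin4 and Cavin1 were at the 97.4 and 93.4 percentiles of mean level among all genes, Cav3 at the 87.1 and Ehd2 at the 85.7 percentile. The ranges of Cav3 and Ehd2 overlapped with dexamethasone and with vehicle but not with dexamethasone plus THSG. What changed place was Cav1: it was the seventh gene with dexamethasone plus THSG, where its range overlapped that of Cavin3, the sixth with dexamethasone, just above Cavin3, and the fifth with vehicle, where its range overlapped that of Cavin2.

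Cav1 and Cav2 are neighbours on chromosome 6 with 0 protein-coding genes between them in the annotation, and Cav3 lies elsewhere on the same chromosome. The genes flanking the pair were lower as well, beside 20.9% of all genes called lower for dexamethasone against vehicle. Tes, next to Cav2, which encodes a LIM protein of focal adhesions, averaged 12.7 ± 0.281 FPKM with dexamethasone plus THSG, 12.8 ± 0.583 FPKM with dexamethasone and 21.1 ± 0.589 FPKM with vehicle (SD, n = 3 each). Its log2 fold change for dexamethasone against vehicle was -0.72 (limma adjusted p = 2.27e-06). Met, next to Cav1, the receptor for hepatocyte growth factor, averaged 7.61 ± 0.274 FPKM with dexamethasone plus THSG, 7.93 ± 0.781 FPKM with dexamethasone and 11.8 ± 0.834 FPKM with vehicle, and its log2 fold change for dexamethasone against vehicle was -0.57 (adjusted p = 0.000406).

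The listed genes farther out did not pass the test for dexamethasone against vehicle. On the side of Cav2, the log2 fold change of Mdfic was -0.24 (limma adjusted p = 0.0673) and that of 2610001J05Rik was -0.20 (adjusted p = 0.0804). On the side of Cav1, that of Capza2 was 0.12 (adjusted p = 0.103) and that of St7 was -0.37 (adjusted p = 0.0550). For dexamethasone plus THSG against vehicle, Tes, Met and Mdfic were called lower, at -0.73, -0.63 and -0.42, beside 17.0% of all genes. None of the 6 neighbours was called between dexamethasone plus THSG and dexamethasone.

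To find the genes most like Cav1 and Cav2 over the 9 libraries, log2(FPKM + 0.1) of each gene was centred on its mean and the root mean square difference was taken over genes whose mean reached 5 FPKM. The ranking describes these libraries and is no test. Nearest to Cav1, among 8409 genes, were Prkg2 (a cGMP-dependent protein kinase, difference 0.0670), Cmklr1 (the chemerin receptor, 0.0797), Thbs1 (the matricellular protein thrombospondin-1, 0.0872), Gja5 (the gap junction protein connexin 40, 0.0878) and Slc20a1 (a phosphate transporter, 0.0936). Thbs1 was the most abundant of these, at 203 ± 3.23 FPKM with dexamethasone plus THSG, 204 ± 4.32 FPKM with dexamethasone and 466 ± 25.1 FPKM with vehicle (SD, n = 3 each).

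Nearest to Cav2, among 8410 genes, were E2f8 (a repressor of the cell cycle E2F family, difference 0.102), Irgm1 (an interferon-inducible GTPase, 0.127), Rasa1 (a Ras GTPase-activating protein, 0.157), Prkg2 (0.160) and Cav1 itself (0.161). E2f8 averaged 4.24 ± 0.214 FPKM with dexamethasone plus THSG, 5.01 ± 0.0291 FPKM with dexamethasone and 10.0 ± 0.317 FPKM with vehicle. Cav2, whose own mean is under 5 FPKM, would stand in place 53 by likeness to Cav1. The other caveolin and cavin genes and Ehd2 stood between place 1806 and place 7440 by likeness to Cav1, with Cav3 the farthest.

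**Figure D4:**
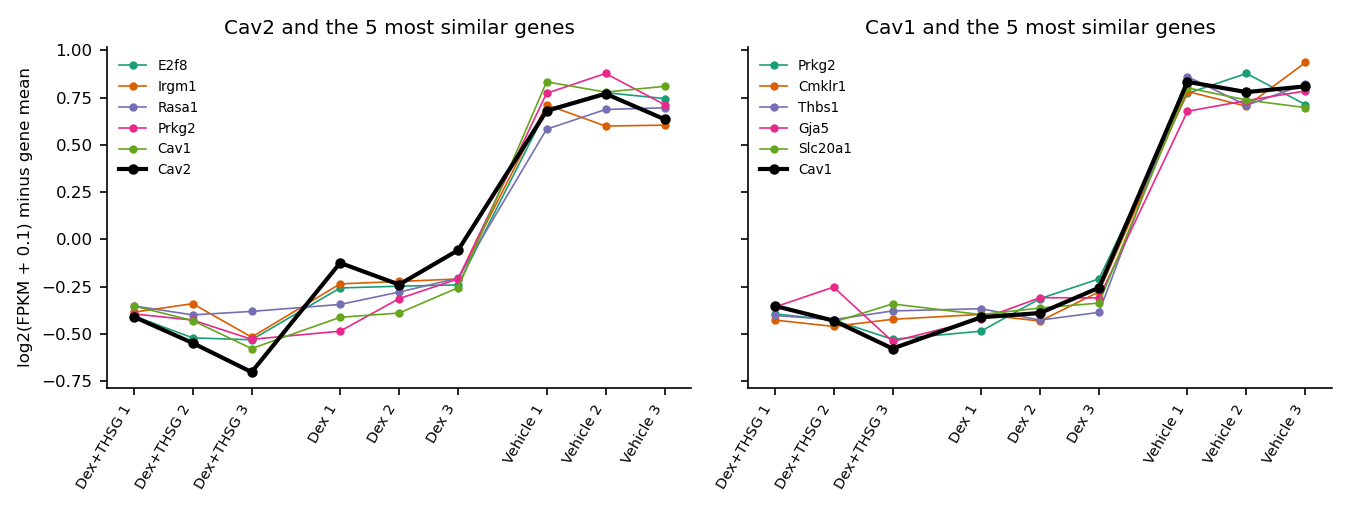
Centred log2(FPKM + 0.1) in the 9 libraries for Cav2 (left, black) and Cav1 (right, black) with the 5 genes of most similar pattern, named in each legend; lines join the libraries only to guide the eye. All genes drawn were low in the 6 treated libraries and high with vehicle, as the choice by likeness fixes.

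Genes of the surroundings of caveolae were read from lists made for this set. The lists were chosen with earlier results of these data known, so their counts are a description and no test. The counts of called genes in these lists, and in the cell type markers further on, stand beside 12.7% of all genes called higher and 20.9% lower for dexamethasone against vehicle. For dexamethasone against vehicle, partners at the neck and in membrane bending had 4 higher and 3 lower of 9 listed genes, with a median log2 fold change of 0.13 beside -0.05 for all genes. Ehd3, a close relative of Ehd2 that works in endosomal recycling, rose by 2.42 (limma adjusted p = 4.80e-11) and averaged 33.9 FPKM with dexamethasone and 6.24 FPKM with vehicle. The membrane-severing GTPase Dnm1 fell by 0.72 (adjusted p = 2.97e-05), and Flna, the actin crosslinker that ties caveolae to stress fibres, fell by 0.22 (adjusted p = 0.00316). Pacsin2 and Pacsin3, membrane-bending F-BAR proteins, were higher, at 0.18 and 0.21.

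Muscle proteins listed as binding caveolin-3 or cavins, most of them of the membrane, had 6 higher and 1 lower of 10 (median 0.18). Cacna1s, the calcium channel of the transverse tubule, rose by 0.33 (limma adjusted p = 0.000126), and Pfkm, the muscle phosphofructokinase, rose by 0.27 (adjusted p = 0.000327). Bin1, which tubulates the membrane in transverse tubules, rose by 0.20 (adjusted p = 0.0102), while the annexin Anxa2 fell by 0.29 (adjusted p = 0.000583). Flotillins and other raft scaffolds had 2 higher and 2 lower of 9 (median -0.09). Among them Erlin2, of the endoplasmic reticulum, and Stom, stomatin, rose by 0.43 (adjusted p = 0.000199) and 0.21 (adjusted p = 0.00255), and Cd59a, a lipid-anchored complement inhibitor, fell by 0.67 (adjusted p = 0.00573).

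Receptors and signal proteins placed in caveolae were split, with 6 higher and 6 lower of 17 (median 0.00). Tgfbr2 and Pdgfrb, receptors for TGF-beta and PDGF, fell by 0.79 (limma adjusted p = 1.02e-07) and 0.89 (adjusted p = 1.88e-07). Tgfbr1, also a receptor for TGF-beta, rose by 0.76 (limma adjusted p = 7.04e-06). The fatty acid transporter Cd36 rose by 1.11 (adjusted p = 2.10e-06). Genes for the membrane lipids of caveolae had 3 higher and 4 lower of 14 (median -0.09): the endocytic receptor Lrp1 fell by 0.61 (adjusted p = 7.19e-06), and Npc1, which exports cholesterol from lysosomes, rose by 0.67 (adjusted p = 1.61e-06).

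Targets of YAP and MRTF, transcription regulators that respond to membrane and cytoskeletal tension, had 5 higher and 5 lower of 14 (median -0.02). Ccn2, a matricellular growth factor, rose by 1.88 (limma adjusted p = 6.08e-10), Tead1, the DNA-binding partner of YAP, rose by 0.41 (adjusted p = 0.000402), and the LIM protein Ajuba fell by 0.76 (adjusted p = 2.95e-05). None of the 6 lists had a gene called for dexamethasone plus THSG against dexamethasone, with list medians of at most 0.06 beside 0.02 for all genes. For dexamethasone plus THSG against vehicle, where 12.1% of all genes were called higher and 17.0% lower, higher and lower counts were 4 and 2 at the neck, 6 and 1 among muscle partners, 2 and 1 among raft scaffolds, 6 and 5 among receptors, 2 and 4 among lipid genes, and 6 and 3 among YAP and MRTF targets.

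**Figure D5:**
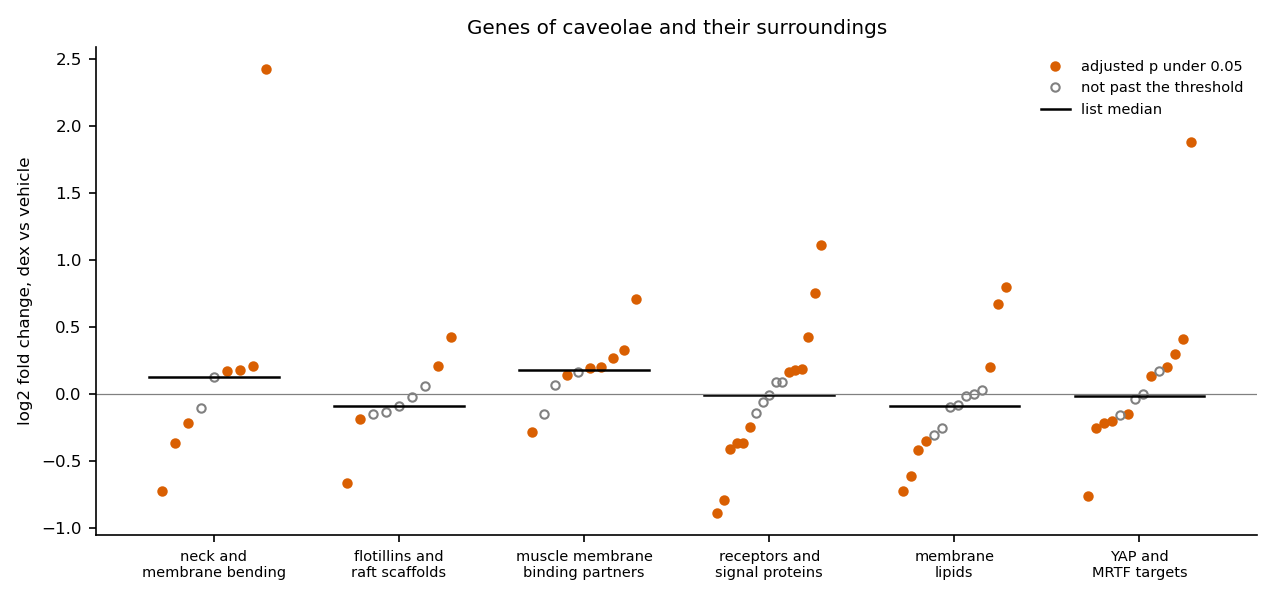
Log2 fold change for dexamethasone against vehicle of each listed gene in 6 groups of genes around caveolae; filled points passed an adjusted p of 0.05, open points did not, and the bar is the median of the list. Ehd3, at 2.42, and Ccn2, at 1.88, stood far above the other genes of their lists, and muscle membrane partners had 6 of 10 genes higher and 1 lower.

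Markers of several cell types that a culture could hold differed between the groups as well. In bulk samples, fewer cells of a type and less RNA per cell cannot be told apart. The label of myotubes was checked against 12 markers: all 12 were listed, 8 were higher with dexamethasone than with vehicle and 0 lower, and they summed to 7353 to 7565 FPKM with dexamethasone plus THSG, 6933 to 7462 FPKM with dexamethasone and 6275 to 6808 FPKM with vehicle. None of 10 endothelial markers, Pecam1 and Cdh5 among them, was listed in the table, and of 10 adipocyte markers only Lpl and Pparg were, with Lpl called higher. Those 2 summed to 19.5 to 24.0 FPKM with dexamethasone plus THSG, 18.1 to 22.2 FPKM with dexamethasone and 5.69 to 6.89 FPKM with vehicle. No value of the table is below 1 FPKM and the filter is not given. An unlisted marker, here or below, may therefore have been expressed in part of the libraries.

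Of the myoblast and reserve cell markers all 10 were listed, and 8 were lower and 2 higher with dexamethasone, where 20.9% of all genes were called lower and 12.7% higher. Vcam1, an adhesion receptor, fell by 1.67 (limma adjusted p = 2.02e-08), Cd34 fell by 1.17 (adjusted p = 2.93e-07) and Myf5 rose by 1.05 (adjusted p = 1.04e-06). Their sum was 676 to 690 FPKM with dexamethasone plus THSG, 639 to 675 FPKM with dexamethasone and 730 to 801 FPKM with vehicle. Of 10 markers of dividing cells 7 were listed, and all 7 were lower with dexamethasone, with sums of 20.7 to 23.2 FPKM with dexamethasone plus THSG, 17.8 to 24.1 FPKM with dexamethasone and 53.6 to 63.2 FPKM with vehicle.

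Fibroblast markers had 7 of 9 listed, 2 higher and 5 lower, and summed to 818 to 841 FPKM with dexamethasone plus THSG, 795 to 800 FPKM with dexamethasone and 1087 to 1154 FPKM with vehicle; Col1a1 and Col1a2 were lower and Postn higher. Smooth muscle markers had 6 of 8 listed, 3 higher and 2 lower, and summed to 1837 to 1861 FPKM with dexamethasone plus THSG, 1718 to 1799 FPKM with dexamethasone and 1681 to 1842 FPKM with vehicle. Their dexamethasone range thus lay inside that of vehicle. Cav1 and Cav2 are expressed in fibroblasts and undifferentiated myoblasts, and the marker sums of those cells were lower in the same libraries. The markers of each list did not all move the same way, and abundant genes weigh most in a sum. In the myoblast sum this was Itga7, at 418 FPKM with dexamethasone and 467 FPKM with vehicle. For dexamethasone plus THSG against vehicle, 4 of the 10 myoblast markers were called lower and 2 higher, beside 17.0% and 12.1% of all genes. The part of those cells in the lower Cav1 and Cav2 was not tested.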

How the data were processed

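RNA was extracted and stranded mRNA libraries were made with commercial kits, per the labels' protocols. Reads were handled with STAR 2.7.10a and featureCounts on GRCm39 (mm39), per the submitters' processing notes; strand setting, transcript lengths and filter are not given in the sources used here. The deposited values are fractional, with at most 6 significant digits, and were taken to be FPKM as the authors computed them; this unit is inferred. Depth is unknown, so the precision is that of 3 libraries per group, and the median half-width of a 95% interval was 0.185 (log2). All 9 libraries were fitted in limma 3.58.1 (R 4.3.3) on log2(FPKM + 0.1) with 1 mean per group, an intensity trend, two-sided tests and Benjamini-Hochberg adjustment over 10716 genes. Gene identifiers were matched to GENCODE annotation of GRCm38 (10670 of 10716) for symbols, GC content and length. Chromosome and gene order were taken from RefSeq genes. Printed coordinates are only those of the RefSeq promoter table. The members and lists were chosen with earlier results of these data known. Named genes were the 8 members, the 3 genes of each list with the smallest p for dexamethasone against vehicle, the 5 most similar genes and the 3 nearest listed neighbours on each side. Pacsin2, Pacsin3, Bin1, Tgfbr1, Itga7, Pecam1, Cdh5, Pparg, Rps2-ps10 and Cks2 were named after their values were seen. One gene that the rule gives is not reported here. Alternatives were the pseudocount, scaling, a minimum mean, the trend, the groups fitted, a replicate block and leaving out each library; a GC and length correction was added after seeing the data.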

Additional observations from a re-analysis of the deposited data

How the results depend on the processing

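Each comparison was refitted under 19 alternatives, and no direction of a called value reversed. Cav1 kept its calls against vehicle in 19 of 19, with log2 fold changes from -1.21 to -1.11 for dexamethasone and from -1.31 to -1.20 for dexamethasone plus THSG, and Cavin4 kept its call for dexamethasone in 19 of 19 (0.18 to 0.27). With a pseudocount of 1, Cav2 was at -0.66 for dexamethasone against vehicle, -0.29 for dexamethasone plus THSG against dexamethasone and -0.95 for dexamethasone plus THSG against vehicle, since it lies near the floor of the table; a minimum mean of 5 FPKM removed it. Leaving out each library gave Cav2 ranges of -0.88 to -0.79 for dexamethasone against vehicle, -0.49 to -0.34 for dexamethasone plus THSG against dexamethasone and -1.32 to -1.17 for dexamethasone plus THSG against vehicle. Of the 7 tested genes, 2 to 4 were called for dexamethasone against vehicle without 1 library, 0 for dexamethasone plus THSG against dexamethasone, and 1 to 3 for dexamethasone plus THSG against vehicle. The last count was 4 with median-ratio scaling and 4 with the GC and length correction, and the cause was not tested. Over all genes, 0 to 1 were called for dexamethasone plus THSG against dexamethasone without 1 library. The log2 ratio of Cav3 to Cav1 changed no direction against vehicle, at 1.28 to 1.53 for dexamethasone and 1.43 to 1.56 for dexamethasone plus THSG. Single calls of Cav3, Cavin1, Cavin3, Cavin4 and Ehd2 that changed are given or counted with the results. Adjusted p over the alternatives spanned 0.0100 to 0.272 for Cav3, 0.0180 to 0.10 for Cavin3, 0.0358 to 0.361 for Cavin1 and 0.0189 to 0.246 for Ehd2 with dexamethasone against vehicle. Of the calls over all genes, 37.8% were higher for dexamethasone against vehicle, 49.6% under scaling by the median ratio and 50.5% after quantile normalization. For dexamethasone plus THSG against vehicle 41.5% were higher, and 50.9% with median-ratio scaling. Same-numbered libraries showed no shared deviation (correlations -0.0862 to 0.107), and differently numbered ones reached -0.123 and 0.114. With 3 libraries per group this cannot settle whether the numbers pair them. The replicate block gave 3518 calls over all genes for dexamethasone against vehicle where 3601 were called without it, 1 for dexamethasone plus THSG against dexamethasone, and 3003 for dexamethasone plus THSG against vehicle where 3120 were called without it.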
